A study of Mus musculus with 12 samples.

Results

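The Hox genes were all symbols of the array that consist of Hox, a cluster letter from a to d and a number. These were 39 of the 34509 symbols, carried by 53 of 46632 probes, and cover all 4 mammalian clusters, with 11 genes of Hoxa, 10 of Hoxb, 9 of Hoxc and 9 of Hoxd. RNA came from femoral head cartilage of TS-4/5∆cat mice, in which the catalytic exon of both Adamts-4 and Adamts-5 is deleted in frame. Hips of 21-day-old mice, 4 per well, were cultured for 3 days untreated, with IL-1α at 10 ng/ml or with retinoic acid at 10 µM, and their RNA was hybridised to 12 Illumina bead arrays. A treatment had 4 arrays, 2 of batch 1, from the line labelled Donut, and 2 of batch 2, from the line labelled Gertrude, so batch and line cannot be told apart. All 12 arrays carry both deletions, no array comes from a wild-type mouse, and the sources used here do not say which alleles separate the lines. The labels speak of triplicate treatments while 4 arrays per treatment were listed, and no label ties an array to an animal. The study's methods name fewer mice per treatment, unpooled, than arrays listed here. Each n therefore counts arrays, which may exceed the number of animals, and each p-value measures the spread between arrays only.

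Hox proteins are homeodomain transcription factors that give cells along the body axis and the limbs their position. Genes with the same number in different clusters are paralogues, and low numbers lie at the end of a cluster that is switched on first and nearest the head, while the high numbers pattern the hind trunk and the far limb. Retinoic acid, through its nuclear receptors, sets the expression of many low-numbered Hox genes in the embryo, and skeletal cells keep a Hox pattern after birth that records where they arose. IL-1α is an inflammatory cytokine that drives cartilage breakdown.

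Detection set how far each gene could be followed. A probe was called detected on an array when its detection p, the share of background probes as bright, was under 0.05. Of the 39 genes, 24 were detected on at least 1 array and 15 on all 12, which is 38.5% against 27.6% of all symbols. Genes entered the tests when a probe was detected on at least 4 of the 12 arrays. This held for 20 Hox genes, 51.3% against 41.5% of all symbols, and for 5 genes of each cluster. The filter ignores treatment and batch, but a gene can pass it through 1 batch or treatment alone.

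**Figure D1:**
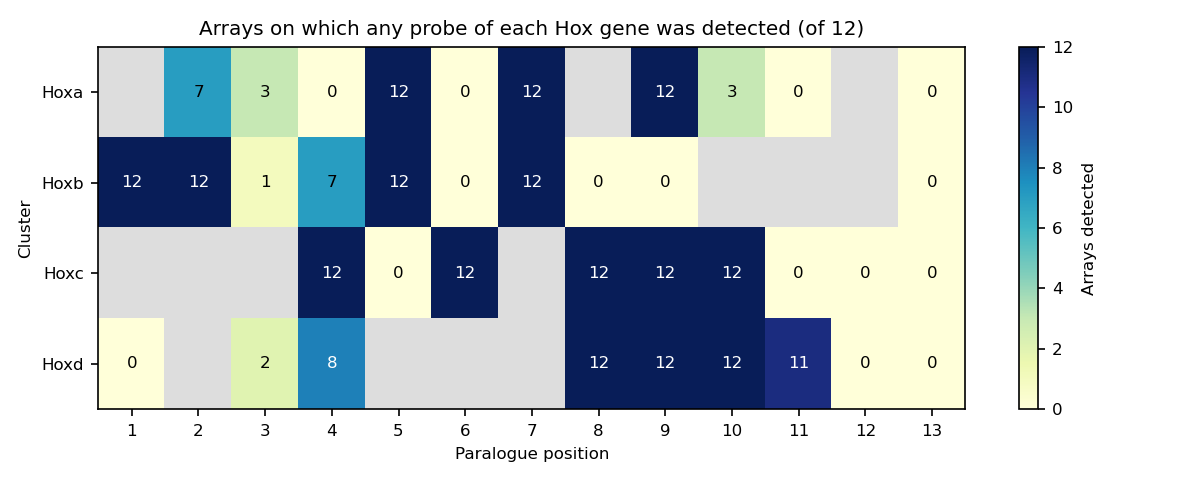
Each cell gives the number of the 12 arrays, also shown by colour, on which any probe of a Hox gene was detected, by cluster (rows) and paralogue position (columns). Grey cells are positions for which no value is shown, and positions 12 and 13 were at 0 arrays in all 4 clusters where a gene exists.

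By position, 4 of 8 genes at positions 1 to 3, 10 of 15 at positions 4 to 8 and 6 of 16 at positions 9 to 13 were tested. The 6 genes at positions 12 and 13, which pattern the hand, foot and tail end, were detected on 0 of 12 arrays, and so were Hoxa4, Hoxa6, Hoxa11, Hoxb6, Hoxb8, Hoxb9, Hoxc5, Hoxc11 and Hoxd1. In the grid of detection by cluster and position, the Hoxc and Hoxd clusters held an unbroken run of tested genes from position 8 to position 10. Hoxa11, whose protein acts with that of Hoxd11 in forearm and lower leg bones, was at 0 arrays while Hoxd11 was detected on 11.

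4 further genes were detected on too few arrays to be tested. Hoxa3, which patterns the neck and pharyngeal organs, was detected on 3 of 4 retinoic acid arrays and on 0 of the 8 others. Its retinoic acid arrays were at 4.90 and 5.40 (batch 1) and at 5.18 and 5.12 (batch 2), against 4.72 to 4.87 over the untreated arrays. The IL-1α arrays, at 4.84 to 5.15, overlapped the retinoic acid arrays. In the fit over all probes without a filter, its difference from untreated with retinoic acid was 0.35 with an adjusted p of 0.0779, which did not pass. The 2 other Hoxa3 probes were undetected on all 12 arrays. Hoxd3, which shapes the first neck vertebrae, was detected on both untreated arrays of batch 2 and nowhere else, and Hoxa10, which patterns the femur, on the same 2 arrays and 1 retinoic acid array of batch 2. Hoxb3 was detected on 1 untreated array of batch 2.

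Batch moved with detection. The arrays of batch 1 detected 16 to 18 Hox genes and those of batch 2 detected 20 to 22, as the number of all probes detected rose from between 13786 and 14965 to between 16732 and 19485. Within batch 1, untreated arrays detected 17 and 18 Hox genes, IL-1α arrays 16 and 16, and retinoic acid arrays 16 and 18. Within batch 2 the counts were 22 and 22, 20 and 20, and 22 and 20. At a detection p under 0.01 the range over all 12 arrays was 10 to 15.

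Of the 7 Hox genes called between retinoic acid and untreated explants, 2 rose and 5 fell. Hoxa2 and Hoxa9 were higher, and Hoxc6, Hoxc8, Hoxd4, Hoxd8 and Hoxd9 were lower, at a limma adjusted p under 0.05 over all probes tested. The 7 of 20 make 35%, while 36.7% of all 14317 symbols tested were called, 18.6% higher and 18.1% lower, so Hox genes were called about as often as other genes. The median difference over the 20 Hox genes was -0.03 on the log2 scale against 0.01 over all symbols. Of the 5 tested Hoxd genes, Hoxd4, Hoxd8 and Hoxd9 fell, while Hoxd10 and Hoxd11 did not pass the test. In cluster Hoxb limma called 0 of 5 tested genes, and 0 had an unadjusted p under 0.05. Without untreated replicate 1 of batch 1 the count over all clusters was 4, and 31.2% of all symbols were called.

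Retinoic acid receptors bind repeats of the half-site AGGTCA, and Hox proteins bind DNA with Pbx partners. Promoter sequences are therefore shown for the Hoxd genes called lower with retinoic acid and for Hoxa2, called higher. Each runs 5′ to 3′ on the gene's strand from 250 bases before to 50 bases after the annotated start, from RefSeq on GRCm38.p6, and capitals mark an AGGTCA or a TGATNNAT on either strand.
Hoxd4 (chr2:74721728-74722027, plus strand): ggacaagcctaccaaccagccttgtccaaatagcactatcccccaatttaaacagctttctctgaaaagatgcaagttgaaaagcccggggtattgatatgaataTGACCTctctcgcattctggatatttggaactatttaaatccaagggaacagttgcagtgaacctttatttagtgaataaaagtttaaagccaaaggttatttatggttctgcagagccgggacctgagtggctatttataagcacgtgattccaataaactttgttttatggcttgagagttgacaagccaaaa
Hoxd8 (chr2:74704365-74704664, plus strand): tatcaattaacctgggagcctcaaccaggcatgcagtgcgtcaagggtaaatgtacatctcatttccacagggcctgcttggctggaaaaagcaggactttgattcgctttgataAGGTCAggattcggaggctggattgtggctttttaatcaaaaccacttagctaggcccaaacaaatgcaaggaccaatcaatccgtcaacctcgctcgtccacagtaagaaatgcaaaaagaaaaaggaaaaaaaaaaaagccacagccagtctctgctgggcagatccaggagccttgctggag
Hoxd9 (chr2:74697513-74697812, plus strand): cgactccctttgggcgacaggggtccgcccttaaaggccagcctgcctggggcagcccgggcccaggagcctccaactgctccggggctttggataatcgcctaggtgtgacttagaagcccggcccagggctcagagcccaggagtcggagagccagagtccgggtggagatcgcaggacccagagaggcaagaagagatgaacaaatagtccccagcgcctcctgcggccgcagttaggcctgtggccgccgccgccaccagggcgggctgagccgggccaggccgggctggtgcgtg
Hoxa2 (chr6:52164782-52165081, minus strand): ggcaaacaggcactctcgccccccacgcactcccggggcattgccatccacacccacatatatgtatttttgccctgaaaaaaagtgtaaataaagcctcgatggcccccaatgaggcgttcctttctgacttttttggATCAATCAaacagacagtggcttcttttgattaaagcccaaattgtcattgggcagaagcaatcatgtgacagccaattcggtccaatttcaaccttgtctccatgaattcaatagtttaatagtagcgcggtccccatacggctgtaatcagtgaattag
RefSeq promoters were given for 22 of the 39 genes, 24 promoters in all, Hoxc6 and Hoxc8 not among them. Of these 24 promoters, 7 held AGGTCA, against 16.3% of all 32851 promoters of that length. Hoxd4 held it on the opposite strand at position -145 from the start and Hoxd8 on its own strand at position -135, while Hoxd9, Hoxa2 and Hoxa9 held none. Hoxa5, Hoxb4, Hoxc4, Hoxd10 and the untested Hoxd3 held it as well. Direct repeats of AGGTCA spaced by 2 or 5 bases were found in 0 of the 24 and in 3 of all promoters for each spacing. TGATNNAT was in 4 of the 24, those of Hoxa2, Hoxb1, Hoxb8 and Hoxd11, against 8.85% of all promoters. Only exact letters were searched. Each direct repeat was held by 0.0091% of all promoters, so 0 of the 24 says little about Hox genes. All these matches describe the letters of a short window and no binding was measured.

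Hoxd8 and Hoxd9, neighbours in the Hoxd cluster, had the largest falls with retinoic acid among the tested Hoxd genes. Hoxd8 signals in untreated explants were 6.61 and 7.03 (batch 1) and 8.61 and 9.21 (batch 2) on the log2 scale. Under IL-1α Hoxd8 was at 6.51 and 6.27 (batch 1) and 8.66 and 8.68 (batch 2). Under retinoic acid Hoxd8 was at 5.54 and 5.75 (batch 1) and 7.97 and 8.01 (batch 2). Retinoic acid arrays lay below the untreated arrays of their own batch, and the batches did not overlap. Hoxd8 fell by 1.05 ± 0.14 on the log2 scale (SE), to 0.483-fold, with an adjusted p of 8.15e-05 from limma (n = 4 arrays each). The difference was -1.17 in batch 1 and -0.93 in batch 2.

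Hoxd9 and its paralogues help pattern the upper limb segment next to the girdle. Hoxd9 signals in untreated explants were 7.47 and 7.99 (batch 1) and 9.20 and 9.24 (batch 2) on the log2 scale. Under IL-1α Hoxd9 was at 7.59 and 7.44 (batch 1) and 9.23 and 9.42 (batch 2). Under retinoic acid Hoxd9 was at 7.16 and 6.56 (batch 1) and 8.17 and 8.33 (batch 2). Both retinoic acid arrays of each batch were below every untreated and IL-1α array of that batch. Hoxd9 fell by 0.92 ± 0.16 (SE), to 0.528-fold (limma adjusted p = 0.00069, n = 4 arrays each), with differences of -0.87 in batch 1 and -0.97 in batch 2. Over both batches the groups overlapped, and the exact permutation test that ignores batch gave p = 0.314 for Hoxd8 and p = 0.2 for Hoxd9, two-sided, where the smallest p for 4 against 4 is 0.0286.

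Hoxd4, which in the hindbrain marks a boundary set with the help of retinoic acid, has its gene model inside that of Hoxd3 in the RefSeq table. The same holds for Hoxb4 inside Hoxb3 and for Hoxa5 inside Hoxa3. Hoxd4 signals in untreated explants were 5.59 and 5.86 (batch 1) and 7.12 and 6.90 (batch 2) on the log2 scale. Under IL-1α Hoxd4 was at 4.98 and 4.79 (batch 1) and 6.80 and 7.003 (batch 2). Under retinoic acid Hoxd4 was at 5.01 and 4.77 (batch 1) and 6.66 and 6.52 (batch 2). In batch 1 the gene was detected on both untreated arrays and on none of the 4 treated arrays. There its untreated level was at least 1.30-fold that with retinoic acid and at least 1.20-fold that with IL-1α, bounds set by the lowest detected signal of each treated array. The fit over both batches gave a fall of 0.63 ± 0.16 with retinoic acid (SE, adjusted p = 0.00839), -0.84 in batch 1 and -0.42 in batch 2. With 1 median per array in place of quantile normalization the fall of Hoxd4 was -0.36 with an adjusted p of 0.0672.

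Hoxc8, a gene of the thoracic vertebrae and of motor neurons that supply the forelimb, had the lowest adjusted p of the 20. Hoxc8 signals in untreated explants were 11.25 and 10.73 (batch 1) and 10.76 and 10.997 (batch 2) on the log2 scale. Under IL-1α Hoxc8 was at 10.06 and 10.19 (batch 1) and 10.21 and 10.61 (batch 2). Under retinoic acid Hoxc8 was at 10.06 and 9.93 (batch 1) and 9.55 and 9.93 (batch 2). The untreated arrays, 10.73 to 11.25, did not overlap those of either treatment. Of the 20 genes 2, Hoxc6 and Hoxc8, had no overlap between retinoic acid and untreated arrays, 10% against 18% of all symbols. Hoxc8 fell by 1.07 ± 0.14 (SE), to 0.477-fold (adjusted p = 7.71e-05), -0.997 in batch 1 and -1.14 in batch 2. A second Hoxc8 probe, detected on all 12 arrays, did not show it, with a difference of -0.0025 and an adjusted p of 0.991.

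Hoxc6, which marks the level of the forelimb in the trunk, had the highest adjusted p of the 7 retinoic acid calls. Hoxc6 signals in untreated explants were 10.43 and 10.56 (batch 1) and 10.43 and 10.93 (batch 2) on the log2 scale. Under IL-1α Hoxc6 was at 10.28 and 10.37 (batch 1) and 10.55 and 10.34 (batch 2). Under retinoic acid Hoxc6 was at 10.17 and 10.15 (batch 1) and 10.32 and 10.29 (batch 2). Its retinoic acid arrays, 10.15 to 10.32, were all below the untreated arrays, 10.43 to 10.93. Hoxc6 fell by 0.36 ± 0.13 (SE), to 0.780-fold, with an adjusted p of 0.0419. The call was lost when any 1 of 9 arrays was left out, with adjusted p-values up to 0.152, and it held without untreated replicate 1 of batch 2 (0.0150) and without either IL-1α array of batch 2 (0.0464 and 0.0373). The adjusted p with 1 median per array was 0.598 and without a filter 0.0578, and a second Hoxc6 probe gave -0.17 with an adjusted p of 0.316. That probe was much dimmer, at means of 5.29 with retinoic acid and 5.46 untreated, against 10.23 and 10.59 for the brightest.

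Hoxa2 and Hoxa9 rose with retinoic acid. Hoxa2 specifies the second pharyngeal arch and its skeleton. Hoxa2 signals in untreated explants were 4.57 and 4.83 (batch 1) and 5.31 and 5.26 (batch 2) on the log2 scale. Under IL-1α Hoxa2 was at 5.26 and 4.97 (batch 1) and 5.33 and 5.50 (batch 2). Under retinoic acid Hoxa2 was at 5.27 and 5.51 (batch 1) and 5.48 and 5.70 (batch 2). In batch 1 both untreated arrays and both IL-1α arrays were undetected and 1 of 2 retinoic acid arrays was detected. Hoxa2 rose by 0.50 ± 0.13 (SE), 1.41-fold, with an adjusted p of 0.0113, and by 0.69 in batch 1 and 0.31 in batch 2. The batch 1 difference starts from undetected untreated signals. Set by the lowest detected signal of each untreated array, the bound there was at least 1.07-fold. With a filter at a detection p under 0.01 Hoxa2 was not tested. The call was lost without untreated replicate 1 of batch 1, where the difference was 0.41 and the adjusted p 0.0511.

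Hoxa9, a paralogue of Hoxd9, moved the other way from it. Hoxa9 signals in untreated explants were 5.40 and 5.94 (batch 1) and 6.55 and 6.65 (batch 2) on the log2 scale. Under IL-1α Hoxa9 was at 6.18 and 6.21 (batch 1) and 6.70 and 6.57 (batch 2). Under retinoic acid Hoxa9 was at 6.43 and 6.11 (batch 1) and 7.01 and 7.04 (batch 2). Within each batch both retinoic acid arrays were above both untreated arrays. Hoxa9 rose by 0.51 ± 0.15 (SE), 1.43-fold (adjusted p = 0.0188). The call was lost without untreated replicate 1 of batch 1 (0.0844), without retinoic acid replicate 1 of batch 1 (0.0815), without retinoic acid replicate 2 of batch 2 (0.0543) and without a filter (0.0673). A second probe also passed, with 0.36 and an adjusted p of 0.0319. It was detected on 0 of 6 arrays of batch 1 and 6 of 6 of batch 2. Its batch 1 difference of 0.32 is therefore between undetected signals.

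**Figure D2:**
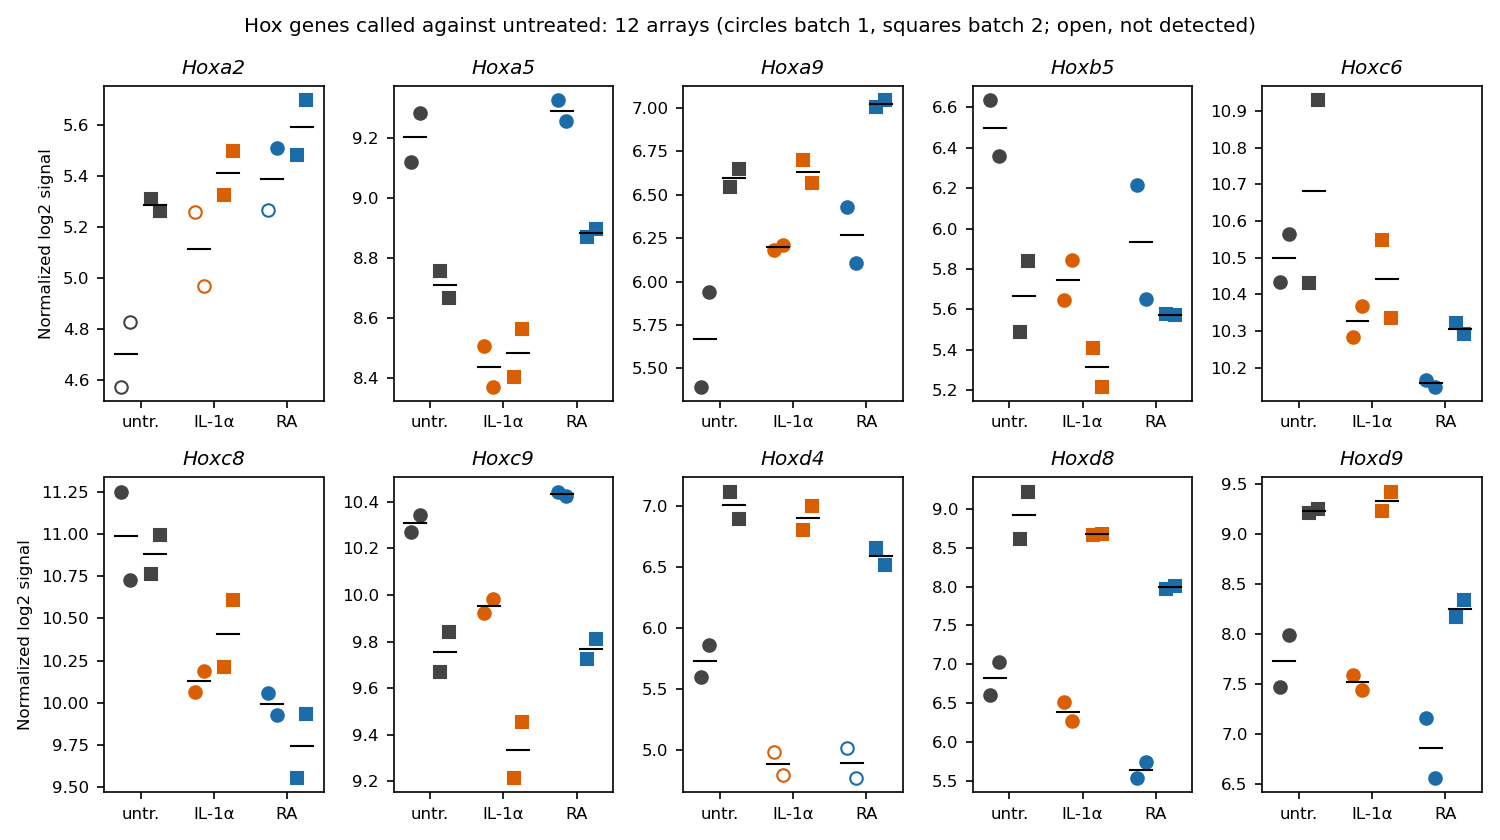
Normalized log2 signal (y axis, a separate range for each gene) of the 10 Hox genes called against untreated explants with either treatment, on each of the 12 arrays, by treatment (x axis). Circles are batch 1, squares batch 2, open symbols arrays on which the gene was not detected, and bars the mean of 2 arrays. Hoxc8 is highest in the 4 untreated arrays, and Hoxd4, Hoxd8 and Hoxd9 are separated by batch.

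Cartilage transcripts fell on the same arrays. Of the 9 chondrocyte marker genes tested, all 9 fell with retinoic acid, with a median difference of -2.83 on the log2 scale, and 7 fell with IL-1α, with a median of -0.82. The log2 of their summed signal was 16.2 to 16.5 over untreated arrays, 15.5 to 15.9 with IL-1α and 13.9 to 14.4 with retinoic acid. Matn3 of this list was detected on no array. In bulk RNA, fewer cells of a type and less RNA per cell cannot be told apart, and the part of this shift in the Hox differences was not tested. Further cell type lists moved too. With retinoic acid 3 of 5 hypertrophic chondrocyte markers fell and 1 rose, and 4 of 5 bone, 5 of 7 synovial and fibroblast, 2 of 2 adipocyte and 1 of 2 muscle markers fell. In the synovial and fibroblast list 1 rose. Of 7 blood and marrow and of 6 endothelial markers 1 rose and 1 fell, and the median difference of 6 cell cycle genes was -0.05. With IL-1α 3 of 5 hypertrophic chondrocyte, 4 of 5 bone, 5 of 7 synovial and fibroblast, 3 of 6 endothelial, 2 of 2 adipocyte, 2 of 2 muscle and 5 of 6 cell cycle genes fell. There 1 synovial and fibroblast marker rose, and of 7 blood and marrow markers 1 rose and 1 fell. The bone marker Dmp1, the leucocyte markers Ptprc and Cd3e, the fat cell markers Fabp4 and Lep and the muscle markers Myh1 and Ckm were detected on no array. As checks of the treatments, 5 of 8 retinoid receptor and feedback genes rose and 1 fell with retinoic acid. Of 8 IL-1 response genes, 5 rose and 0 fell with IL-1α, while 0 rose and 4 fell with retinoic acid. The log2 of the summed signal of this list was already 15.1 to 15.6 over untreated arrays, against 16.26 to 16.31 with IL-1α.

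**Figure D3:**
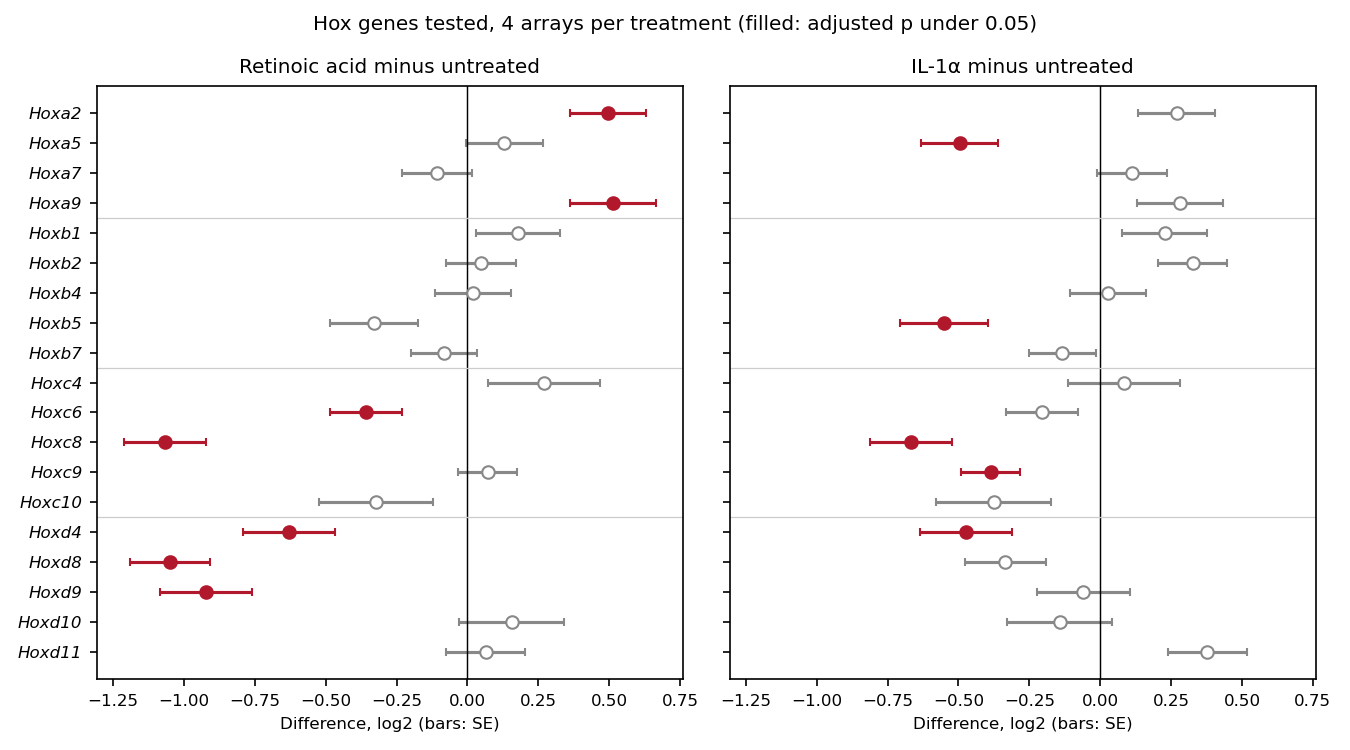
Difference from untreated explants on the log2 scale (x axis) for Hox genes tested (y axis, by cluster and position), with retinoic acid on the left and IL-1α on the right. Points are limma estimates over 4 arrays a treatment, bars are SE, and filled points have an adjusted p under 0.05. With IL-1α all filled points lie below 0, and with retinoic acid 5 lie below and 2 above.

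With IL-1α, 5 of the 20 Hox genes fell and none rose. Hoxa5, Hoxb5, Hoxc8, Hoxc9 and Hoxd4 were called, 25% against 30.2% of all symbols, of which 15.1% were called higher and 15% lower. The count of 0 higher comes from limma, and at an unadjusted p under 0.05 it was 2, Hoxb2 and Hoxd11. With an offset of 50 in place of 16, Hoxb2 was called higher (0.26, adjusted p = 0.0472). The median difference was -0.11 over the 20 genes and 0.01 over all symbols. Hoxa5 and Hoxc8 had no overlap between IL-1α and untreated arrays, 10% against 14.3% of all symbols. With 1 median per array 1 gene was called, Hoxc8, as the share of all symbols fell to 17.9%. The count was 2 without untreated replicate 2 or IL-1α replicate 1 of batch 1, 3 without untreated replicate 1 or IL-1α replicate 2 of batch 1, and 8 without untreated replicate 1 of batch 2. Over these fits 21.5% to 31.4% of all symbols were called. The untreated arrays are those also used for retinoic acid.

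Hoxc8 fell by 0.67 ± 0.14 with IL-1α (SE), to 0.629-fold, with an adjusted p of 0.00409, with differences of -0.86 in batch 1 and -0.47 in batch 2. Its second and dimmer probe gave 0.26 with an adjusted p of 0.154. The retinoic acid arrays of Hoxc8 lay below the IL-1α arrays without overlap, with a difference of -0.40 and an adjusted p of 0.0514.

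Hoxa5 sets the boundary of neck and chest vertebrae and is needed in the embryonic lung. Hoxa5 signals in untreated explants were 9.12 and 9.28 (batch 1) and 8.75 and 8.67 (batch 2) on the log2 scale. Under IL-1α Hoxa5 was at 8.50 and 8.37 (batch 1) and 8.40 and 8.56 (batch 2). Under retinoic acid Hoxa5 was at 9.32 and 9.25 (batch 1) and 8.87 and 8.90 (batch 2). IL-1α arrays ranged from 8.37 to 8.56 and lay below all untreated arrays, at 8.67 to 9.28. Hoxa5 fell by 0.50 ± 0.14 with IL-1α (SE), to 0.709-fold (adjusted p = 0.0156), with differences of -0.76 in batch 1 and -0.23 in batch 2. The call was lost without untreated replicate 2 of batch 1 (adjusted p = 0.0749) and without IL-1α replicate 1 (0.0604) or replicate 2 (0.0790) of batch 1. It was also lost with 1 median per array (0.0768). Under retinoic acid Hoxa5 was 0.63 ± 0.14 above its IL-1α level (adjusted p = 0.00324), and the 4 arrays of each did not overlap.

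Hoxc9, a gene of the thoracic trunk, separated within each batch. Hoxc9 signals in untreated explants were 10.27 and 10.34 (batch 1) and 9.67 and 9.84 (batch 2) on the log2 scale. Under IL-1α Hoxc9 was at 9.92 and 9.98 (batch 1) and 9.21 and 9.46 (batch 2). Under retinoic acid Hoxc9 was at 10.44 and 10.43 (batch 1) and 9.72 and 9.81 (batch 2). In both batches the 2 IL-1α arrays were below the 2 untreated and the 2 retinoic acid arrays. Hoxc9 fell by 0.39 ± 0.10 with IL-1α (SE), to 0.765-fold (adjusted p = 0.0148), with differences of -0.35 and -0.42 within batches 1 and 2. With 1 median per array the difference was -0.27 with an adjusted p of 0.266. Under retinoic acid Hoxc9 was 0.46 ± 0.10 above its IL-1α level (adjusted p = 0.00461).

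Hoxb5 acts in the nerve cells of the gut and in the shoulder region. Hoxb5 signals in untreated explants were 6.64 and 6.36 (batch 1) and 5.49 and 5.84 (batch 2) on the log2 scale. Under IL-1α Hoxb5 was at 5.65 and 5.84 (batch 1) and 5.41 and 5.22 (batch 2). Under retinoic acid Hoxb5 was at 6.22 and 5.65 (batch 1) and 5.57 and 5.57 (batch 2). Within each batch the IL-1α arrays were below the untreated ones. Hoxb5 fell by 0.55 ± 0.16 with IL-1α (SE), to 0.682-fold (adjusted p = 0.0180). The call was lost without untreated replicate 1 (0.0748) or replicate 2 (0.0712) of batch 1 and without IL-1α replicate 1 of batch 1 (0.0785), with 1 median per array (0.0527) and without a filter (0.0701). With retinoic acid the difference was -0.33 (adjusted p = 0.122), and it was called without untreated replicate 1 of batch 2 (-0.47, adjusted p = 0.0282).

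Hoxd4 fell by 0.47 ± 0.16 with IL-1α (SE, adjusted p = 0.0425), with differences of -0.84 in batch 1, where the treated arrays were undetected, and -0.10 in batch 2. The call was lost when any 1 of 9 arrays was left out, with adjusted p-values up to 0.177. It held without untreated replicate 2 of batch 2 (0.0207), IL-1α replicate 2 of batch 2 (0.0124) or retinoic acid replicate 2 of batch 1 (0.0460). Of 10 processing alternatives 6 lost it as well, with adjusted p-values up to 0.858. These were an offset of 50 (0.0698), no background correction (0.0512), 1 median per array (0.0820), the absence of a filter (0.136), separate normalization of the batches (0.0939) and treatment alone in the model.

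Between retinoic acid and IL-1α, 4 of the 20 genes were called, 20% against 32.5% of all symbols. Hoxa5 and Hoxc9 were higher and Hoxd8 and Hoxd9 lower with retinoic acid, 10% each way against 16.1% of symbols higher and 16.4% lower. Hoxd8 was 0.71 ± 0.14 lower (SE), to 0.610-fold (adjusted p = 0.00184), and Hoxd9 0.86 ± 0.16 lower, to 0.550-fold (adjusted p = 0.00127). Both Hoxd genes had all retinoic acid arrays below all IL-1α arrays of the same batch. With 1 median per array the adjusted p of Hoxd8 was 0.0613. Hoxa5 and Hoxc8 had no overlap between the treatments, 10% against 18.9% of all symbols.

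The 10 other tested genes were called against untreated with neither treatment. Of these, 7 were detected on all 12 arrays. Hoxb1 and Hoxb2, both expressed where the facial nerve arises in the hindbrain, are at the start of their cluster. Hoxb1 signals in untreated explants were 5.73 and 6.47 (batch 1) and 5.26 and 5.07 (batch 2) on the log2 scale. Under IL-1α Hoxb1 was at 6.57 and 6.47 (batch 1) and 5.15 and 5.25 (batch 2). Under retinoic acid Hoxb1 was at 6.29 and 6.65 (batch 1) and 5.23 and 5.07 (batch 2). Hoxb2 signals in untreated explants were 7.02 and 7.07 (batch 1) and 7.11 and 6.67 (batch 2) on the log2 scale. Under IL-1α Hoxb2 was at 7.39 and 7.45 (batch 1) and 7.07 and 7.26 (batch 2). Under retinoic acid Hoxb2 was at 7.01 and 7.19 (batch 1) and 6.92 and 6.94 (batch 2). Hoxb1 overlapped between treatments in each comparison. Hoxb2 differed from untreated by 0.05 (adjusted p = 0.797) with retinoic acid and by 0.33 (adjusted p = 0.0606) with IL-1α, and the latter was called without untreated replicate 1 (0.0174) or IL-1α replicate 1 (0.0431) of batch 2.

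Hoxb7 and Hoxa7, which act in the trunk, differed from untreated by -0.13 to 0.11 over both treatments in their brightest probes. Hoxa7 signals in untreated explants were 9.27 and 9.09 (batch 1) and 8.02 and 8.47 (batch 2) on the log2 scale. Under IL-1α Hoxa7 was at 9.11 and 9.04 (batch 1) and 8.46 and 8.69 (batch 2). Under retinoic acid Hoxa7 was at 9.09 and 8.98 (batch 1) and 8.07 and 8.27 (batch 2). Hoxb7 signals in untreated explants were 8.78 and 8.91 (batch 1) and 8.30 and 7.87 (batch 2) on the log2 scale. Under IL-1α Hoxb7 was at 8.68 and 8.78 (batch 1) and 7.91 and 7.96 (batch 2). Under retinoic acid Hoxb7 was at 8.74 and 8.76 (batch 1) and 7.98 and 8.05 (batch 2). Treatments overlapped in both genes. The adjusted p-values against untreated lay between 0.423 and 0.632.

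Hoxc10 and Hoxd10 take part in patterning the hindlimb and the lumbar motor neurons. Hoxc10 signals in untreated explants were 6.83 and 6.66 (batch 1) and 6.14 and 7.33 (batch 2) on the log2 scale. Under IL-1α Hoxc10 was at 6.31 and 6.22 (batch 1) and 6.58 and 6.34 (batch 2). Under retinoic acid Hoxc10 was at 6.00 and 6.47 (batch 1) and 6.60 and 6.59 (batch 2). Hoxd10 signals in untreated explants were 6.17 and 6.67 (batch 1) and 5.62 and 6.39 (batch 2) on the log2 scale. Under IL-1α Hoxd10 was at 6.20 and 6.32 (batch 1) and 5.94 and 5.82 (batch 2). Under retinoic acid Hoxd10 was at 6.78 and 6.67 (batch 1) and 6.28 and 5.74 (batch 2). One untreated array, replicate 1 of batch 2, read below the other untreated arrays in both genes. Without it, Hoxc10 was called lower with retinoic acid (-0.58, adjusted p = 0.0122) and with IL-1α (-0.64, 0.00978). With all arrays these differences were -0.32 (0.244) and -0.38 (0.184). Without retinoic acid replicate 2 of batch 2, Hoxd10 was called higher under retinoic acid than IL-1α (0.49, adjusted p = 0.0489), against 0.30 and 0.257 with all arrays.

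Hoxc4, the first gene of its cluster, was measured by probes that gave unlike results. Hoxc4 signals in untreated explants were 6.49 and 5.67 (batch 1) and 5.27 and 5.06 (batch 2) on the log2 scale. Under IL-1α Hoxc4 was at 5.78 and 6.31 (batch 1) and 5.20 and 5.55 (batch 2). Under retinoic acid Hoxc4 was at 6.504 and 6.55 (batch 1) and 5.27 and 5.26 (batch 2). The brightest probe did not pass for retinoic acid, with 0.27 and an adjusted p of 0.319. A second Hoxc4 probe was undetected on both untreated arrays of batch 1 and passed over both batches, with 0.54 and an adjusted p of 0.0325. In batch 1 that probe gave at least 1.49-fold with retinoic acid and at least 1.53-fold with IL-1α. In batch 2 its differences were 0.26 and 0.05, with overlapping arrays, and over both batches IL-1α did not pass (0.45, adjusted p = 0.0754).

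Hoxb4 and Hoxd11 were detected on 7 and 11 arrays. Hoxb4, known for its part in blood stem cells, differed by 0.02 with retinoic acid (adjusted p = 0.926) and 0.03 with IL-1α (0.905). Hoxd11 differed by 0.06 (0.758) and 0.38 (0.0583), the latter called without untreated replicate 1 of batch 2 (0.0275). Leaving out that array also made Hoxd8 pass for IL-1α (-0.46, adjusted p = 0.0236).

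For Hoxd4, Hoxd8 and Hoxd9 the difference between batches was larger than that between treatments, which was not particular to them. Over all symbols the median absolute difference was 0.54 between batches, against 0.28 with retinoic acid and 0.25 with IL-1α. Over the 20 Hox genes these medians were 0.66, 0.24 and 0.28. For Hoxd8 batch 2 was 2.24 ± 0.12 above batch 1 (SE), 4.72-fold, for Hoxd4 1.67 ± 0.12 and for Hoxd9 1.56 ± 0.13, with limma adjusted p-values of 1.06e-10, 5.92e-09 and 1.82e-08 (n = 6 arrays each). In each of the 3 genes all arrays of batch 2 were above all of batch 1. Hoxd10 and Hoxd11, next to Hoxd9 on the side of the high numbers, were lower in batch 2, with differences of -0.50 and -0.70, but with 1 median per array Hoxd10 was at 0.32 and Hoxd11 at -0.12 and neither passed. Of the 20 Hox genes 16 were called between batches, 80% against 76.1% of all symbols. In batch 2, 7 were higher and 9 lower, while 29.7% and 46.3% of all symbols were called higher and lower. With 1 median per array 14 were called, 12 higher and 2 lower. The median over all symbols moved from -0.20 to 0.46 between these scalings, and 8 of the 20 genes changed direction. Genes called the same way under both included Hoxa2, Hoxa9, Hoxb4, Hoxd4, Hoxd8 and Hoxd9 (higher) and Hoxb1 and Hoxc4 (lower). Among them, Hoxa2 and Hoxb4 were detected on 1 of 6 arrays of batch 1 and Hoxd4 on 2, against 6 of 6 in batch 2. Hoxa2, Hoxb4 and Hoxd4 thus met the filter only through batch 2, where they were higher, and their calls are not independent of that selection. Of the 20, 11 had no overlap between batches, 55% against 38% of all symbols. Overlap was counted under quantile normalization only. With 1 median per array Hoxa7, Hoxb7 and Hoxc9, which are among the 11, differed between batches by 0.04, 0.08 and 0.03.

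**Figure D4:**
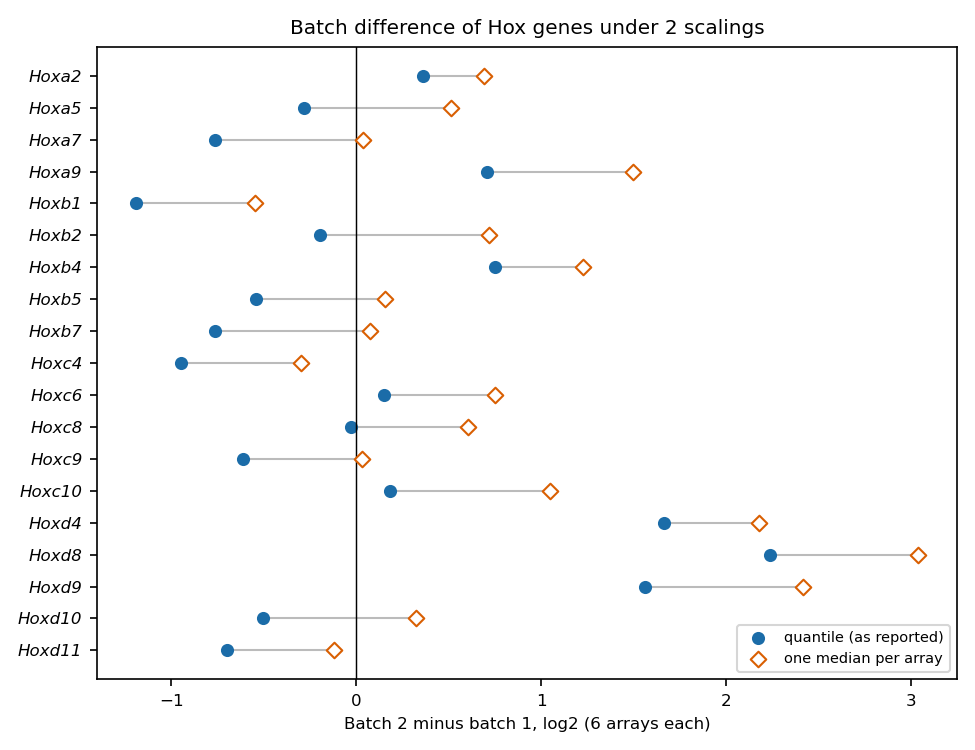
Difference of batch 2 from batch 1 on the log2 scale (x axis) for Hox genes tested (y axis), with 6 arrays a batch. Circles are quantile-normalized values, diamonds values scaled to 1 median per array, and lines join both for a gene. Hoxd4, Hoxd8 and Hoxd9 lie farthest right under both scalings.

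The treatment differences were then compared between batches. No Hox gene had a treatment effect that differed between batches in limma's test of the interaction, for retinoic acid against untreated (2.7% of all symbols called), IL-1α against untreated (4.57%) or retinoic acid against IL-1α (8.91%). At an unadjusted p under 0.05 the counts were 0, 2 and 1. The lowest adjusted p was 0.0778, for Hoxd4 with IL-1α.

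Genes that act with Hox proteins or on their clusters were counted by list. Of Hox cofactors of the TALE homeodomain class, which bind DNA beside Hox proteins, 5 were tested. Retinoic acid raised 1, Pbx2 (0.47, adjusted p = 0.00613). IL-1α raised Pbx2 as well and lowered 2, among them Meis1 (-0.64, adjusted p = 0.00723). Of 15 tested Polycomb and Trithorax genes, whose proteins hold Hox clusters silent or active, retinoic acid raised 4 and lowered 2, and IL-1α raised 3. Of all symbols, 18.6% were called higher and 18.1% lower with retinoic acid, and 15.1% and 15% with IL-1α. The largest were with retinoic acid, Phc2 at 1.87 (adjusted p = 1.98e-07), Ezh2 at 0.95 (0.00964) and Bmi1 at 0.90 (0.00239). The 2 lowered genes of this list were at -0.83 and -0.46. Of 13 tested limb patterning factors outside the clusters, retinoic acid raised 2 and lowered 3, and IL-1α raised 1 and lowered 7. Prrx2, a limb mesenchyme factor, rose by 2.37 with retinoic acid (adjusted p = 3.63e-09). Shox2, which controls growth of the upper limb segment, fell by 1.40 with retinoic acid (adjusted p = 1.13e-06), and Isl1, which starts the hindlimb, fell by 0.91 with IL-1α (adjusted p = 0.00101). Of 8 cluster neighbours and ParaHox genes, Cdx2 alone was tested and was called with neither treatment, and Evx1, Evx2, Cdx1, Cdx4, Gsx1, Gsx2 and Pdx1 were detected on no array.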

How the data were processed

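Femoral head cartilage RNA was measured on 12 arrays. The authors deposited probe intensities without normalization, and a detection score per probe and array, from which the detection p was taken as 1 minus the score. 0 columns were left without a sample. Per the submitters' notes limma was used. The genome build is not given in the sources used here.

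Intensities were processed with limma 3.58.1 in R 4.3.3 (neqc: background from the detection p, quantile normalization, offset of 16, log2). The filter kept 18200 of 46632 probes, those whose detection p was below 0.05 on 4 or more of the 12 arrays. The linear model (lmFit, eBayes) held treatment and a 4-level factor that combines batch and replicate. The study's methods name a factor for batch and biological replicates but not its levels. Further models had treatment by batch, or treatment and batch. Adjusted p-values are Benjamini-Hochberg over all kept probes, called under 0.05. Each gene was read from its brightest kept probe. Exact permutation tests exchanged the 8 arrays of 2 treatments.

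The rule for named genes took every Hox gene tested or detected on both arrays of a treatment and batch, array values for genes called or detected on all 12, and at most 3 genes a list by size of change. Hoxb3 and the undetected genes are named to account for members. Some genes that are counted are not reported here by name. The members and lists were chosen with earlier results of these data known. All 39 symbols matched the RefSeq table. The number of arrays limits precision. Functions were tested on simulated data.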

Additional observations from a re-analysis of the deposited data

Results flagged for a closer look

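Hoxb5 with retinoic acid held 1 array far from the other 3, replicate 1 of batch 1 at 6.22 on the log2 scale, where the others were between 5.57 and 5.65. It was the only one among 105 sets of arrays examined, 0.952%. A chance rate of about 1 in 20 holds for samples of a single kind. Each set here mixed batches or treatments, so the share cannot be compared with that rate.

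Hoxa3, which was not tested, was detected on 3 retinoic acid arrays and on 0 untreated arrays.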

How the results depend on the processing

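The number of Hox genes called was recomputed under 13 alternatives and without each of the 12 arrays. For IL-1α against untreated it was 1 with 1 median per array and 3 with no filter, against 5, while the share of all symbols called was 17.9% and 10.1%, against 30.2%. With treatment alone in the model it was 1 in each of the 3 comparisons (Hoxc8 against untreated with either treatment, Hoxa5 between treatments), while the share of all symbols fell from 36.7%, 30.2% and 32.5% to 13.2%, 7.63% and 11.8%. With a 1.5-fold change required as well it was 4 for retinoic acid and 1 for IL-1α, with 22.8% and 17.1% of all symbols. Leaving out 1 array gave 4 to 9 for retinoic acid against untreated and 2 to 8 for IL-1α against untreated, and the cause was not tested. The highest counts came without untreated replicate 1 of batch 2, and the lowest for retinoic acid without untreated replicate 1 of batch 1. The lowest for IL-1α came without untreated replicate 2 or IL-1α replicate 1 of batch 1. For retinoic acid against IL-1α the range was 4 to 5. Without the replicate block the counts were 7, 6 and 4. The blocked fit, a reading of the factor named in the study's methods, is the one reported. Same-numbered arrays of a batch did not all deviate together (correlations -0.11 to 0.39). Scaling to 1 median moved the median of all symbols for retinoic acid against untreated from 0.01 to 0.13. Of the 16 calls of single genes, 10 held without every array in turn and 0 turned in direction. Hox genes with a treatment effect that differs between batches stayed at 0 in each alternative for which this was fitted. The batch comparison was not read after normalization within each batch, since separately normalized batches share no level. Dim genes, such as Hoxa2 and Hoxd4 in batch 1, are limited by signal over background.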
